A study of Macaca radiata with 6 samples.

Results

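Cytosolic ribosomal protein genes were examined in corpora lutea (CL) of bonnet monkeys, 24 h after a single s.c. injection on day 7 of the luteal phase. The members were the genes whose only symbol in the annotation of the array names a protein of the large (RPL, RPLP) or small (RPS, RPSA) subunit of the cytosolic ribosome, with the RPS6 kinases left out. Of 14132 genes with a probe set of a single symbol, 36 met this rule, 23 of the large and 13 of the small subunit. No probe set carried RPLP0, RPSA, RPL41, RPS27A or RPL11 as its only symbol, so these genes were not analysed here. For each gene the brightest probe set was used, that is, the one with the highest mean log2 signal over all 6 arrays.

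The CET group (n = 3 arrays) had received Cetrorelix, an antagonist of the GnRH receptor that withdraws pituitary LH from the CL, at 150 μg/kg BW, and the VEH group (n = 3 arrays) its vehicle, 5.25% glucose. All animals were cycling females, the labels name no other agent in either group, and whole pieces of CL were used. By the design text both treatments were given to the same animals, yet no label says which CET sample belongs with which VEH sample, so no animal term was fitted and p-values measure only the spread between samples. RNA of the bonnet monkey, Macaca radiata, was read with Affymetrix probes designed for the rhesus macaque. The deposited MAS5 signals were taken to log2 and quantile-normalized between arrays, and all levels below are on this scale unless stated otherwise.

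Ribosomal proteins are made in step with ribosomal RNA and with each other, since each ribosome holds a single copy of nearly all of them. Their mRNAs are among the most abundant of a cell and start with a terminal oligopyrimidine (TOP) tract, through which growth signals mainly change their translation. The corpus luteum is a short-lived gland that depends on LH and makes large amounts of progesterone. Ribosomal protein genes also have many processed pseudogenes and near-identical copies, so that an array probe can read more than a single locus. L19, the product of RPL19, served the study as internal control of its real time RT-PCR.

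The labelled tissue was checked against luteal markers, of which 9 had a probe set and only some were bright. Mean log2 signals over the 6 arrays were 14.5 for STAR, the mitochondrial cholesterol carrier, 14.4 for HSD3B2, the enzyme that forms progesterone, and 13.6 for INHA, the inhibin alpha subunit. FDX1 had 13.5, and CYP19A1 (10.6), CYP17A1 (10.4), NR5A2 (10.4) and TSPO (10.1) were lower. NR5A1, at 8.28, was under the median of all genes, 8.84. No probe set named only CYP11A1, LHCGR or SCARB1 was used here. The arrays did not behave alike within CET. The signal at the 3′ end of the GAPDH control transcript was 142.9 times that at the 5′ end in CET replicate 2, against 3.03 and 5.89 in the other CET samples and 1.79 to 7.31 in VEH. The brightest 1% of probe sets began at a log2 signal of 12.4 and 12.3 as deposited in CET replicates 2 and 3, and at 12.9 or above on the other 4 arrays. Results are therefore given with and without these libraries where that matters. The part of RNA quality in them was not tested.

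After CET, no ribosomal protein gene passed the test, and how far the group as a whole differed from VEH depended on the scaling of the arrays. The log2 fold change (CET minus VEH) had a median of -0.24 over the 36 genes and ran from -1.69 for RPS16 to 0.75 for RPS27L. The mean was lower after CET for 22 genes and higher for 14, that is, 61.1% lower where 54.7% of all genes were lower. The median over all genes was -0.08, and over the brightest 10% of genes, where most members lie, -0.19, with 65.1% lower. By limma with Benjamini-Hochberg adjustment over 52707 probe sets, 0 members had an adjusted p under 0.05, as had 0% of all probe sets, and the smallest adjusted p of any probe set was 0.83. At an unadjusted p under 0.05, 1 member was lower (RPS16, adjusted p = 0.83 by limma) and 0 were higher, beside 3.01% and 2.02% of all genes. The 3 CET samples all lay below the 3 VEH samples for RPL32, RPS16 and RPS19, where 6.45% of all genes did, and all above them for RPL9 and RPS27L, where 5.07% did. With 3 samples in each group, the smallest p that an exact permutation test allows is 0.1. In whole tissue, fewer cells of a type and less RNA per cell cannot be told apart.

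The sign of the group median depended on the scaling of the arrays. It was -0.53 on the signals as deposited (all genes 0.0042), -0.73 with array medians subtracted (all genes -0.20) and 0.13 after cyclic loess (all genes -0.05). Relative to the median of all genes it was -0.15, -0.53, -0.53 and 0.18 under quantile normalization, as deposited, with array medians and after cyclic loess. The number of members with a lower mean was 31 as deposited, 32 with array medians and 14 after cyclic loess, against the 22 above. These counts were not set against other genes under the same scalings. Bright genes in general also had low medians there. Over the brightest 10% of genes the median was -0.44 as deposited and -0.65 with array medians. The difference between members and bright genes was not tested under these scalings. After quantile normalization, the median of the members was -0.39 when CET replicate 1 was left out and -0.10 when CET replicate 2 was. It was -0.11 when CET replicate 3 was left out and -0.11 when VEH replicate 5 was.

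**Figure D1:**
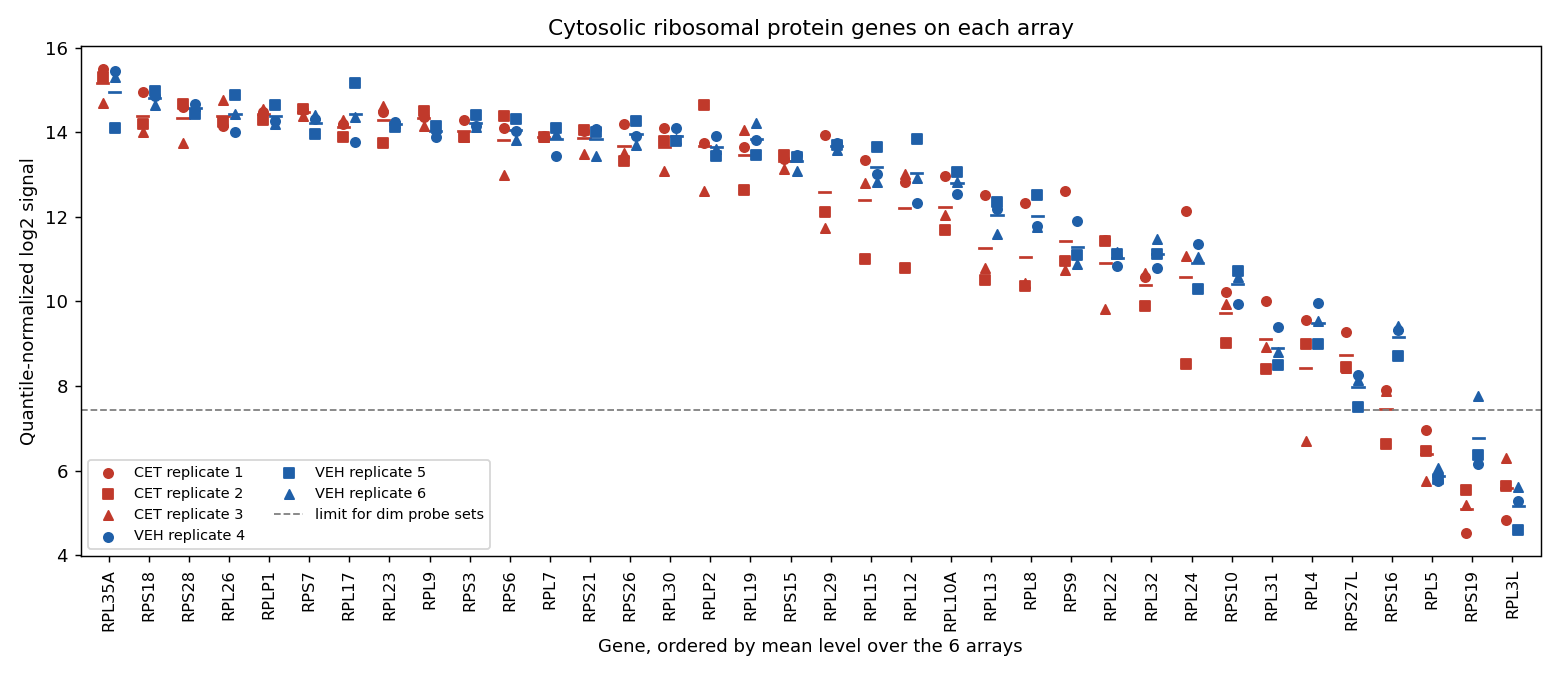
Quantile-normalized log2 signal (vertical axis) of the 36 ribosomal protein genes, ordered by mean level, on each of 3 CET arrays (red) and 3 VEH arrays (blue); short bars are group means and the dashed line is the limit for dim probe sets, 7.43. The pooled SD within groups is 0.156 to 0.740 for the 18 brighter genes and 0.383 to 1.36 for the 18 dimmer ones, many of which have 1 or more CET arrays far below the VEH arrays.

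The signals were high for most members. The limit under which probe sets were called dim was a log2 signal of 7.43. Of the 36 genes, 33 exceeded it, and RPL5, RPS19 and RPL3L did not. The median level was 13.2, where the median of all genes was 8.84. The members are 0.255% of the genes. On the linear signals as deposited, they held 2.57% to 3.01% of the summed signal of all genes on the VEH arrays. On the CET arrays they held 3.63%, 2.04% and 1.72% of the deposited signal in replicates 1, 2 and 3. CET replicate 1 thus lay above and CET replicates 2 and 3 below all VEH arrays. As deposited, the brightest 1% of probe sets also began lower in CET replicates 2 and 3, as given above. Among the brightest 5% of genes were 26, 19 and 21 members in the CET replicates and 23, 24 and 22 in VEH replicates 4, 5 and 6. The order of levels is one of probe sets, which bind with different strength, and not of transcript abundance.

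The members were also described by level. Split evenly by level, a split made after the values were seen, the 18 brighter genes (log2 13.3 to 15.1) had a median log2 fold change of -0.03, with 9 lower and 9 higher and none beyond -0.43 or 0.30. The 18 dimmer genes (log2 5.38 to 13.1) had a median of -0.72, with 13 lower and 5 higher. The lower values of the dimmer genes came from 2 of the 3 CET arrays. Against the VEH mean of each gene, the median difference of the dimmer genes was 0.22 in CET replicate 1, -1.23 in CET replicate 2 and -0.52 in CET replicate 3. Of these 18 genes, 12 were below all VEH arrays in CET replicate 2 and 12 in CET replicate 3, but in CET replicate 1 only RPL32, RPS16 and RPS19 were. Leaving out CET replicate 2 gave these 18 genes a median of -0.32, and leaving out CET replicate 1 gave -1.03. Relative to all genes they stayed below 0 under each scaling, at -0.64 after quantile normalization, -0.85 as deposited, -0.85 with array medians and -0.46 after cyclic loess. The brighter genes were at 0.06, -0.39, -0.39 and 0.27 under the same scalings, so their direction was not settled. The order of the medians turned with the choice of probe set. At the second brightest, which 9 of the brighter and 7 of the dimmer genes had, the medians were -0.56 and 0.01. These second probe sets did not keep the split by level. For the brighter genes they lay between log2 7.94 (RPL30) and 14.36 (RPL35A). With the mean over all probe sets of a gene, the brighter and dimmer genes had medians of -0.29 and -0.45. With a term for the 3′ to 5′ ratio the medians were -0.09 and -0.37.

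**Figure D2:**
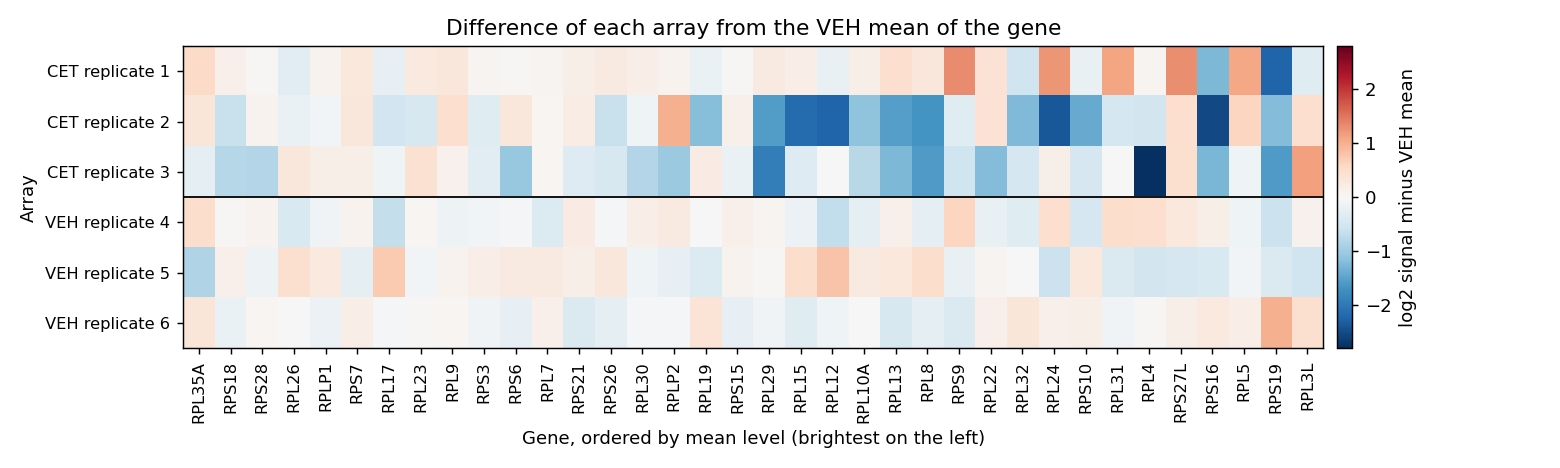
Log2 signal of each array minus the VEH mean of the same gene (colour; blue lower, red higher) for 6 arrays (rows) and 36 ribosomal protein genes (columns, brightest on the left). Blue cells gather in CET replicates 2 and 3 among the dimmer genes, with differences down to -2.79, whereas CET replicate 1 resembles the VEH rows over most columns.

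Shares of low values on each CET array were also taken over other genes. In CET replicate 1, 3 of 36 members (8.33%) were below all VEH arrays, in CET replicate 2 17 (47.2%) and in CET replicate 3 19 (52.8%). For all genes the shares were 25.3%, 31.9% and 38.3%, and for the brightest 10% of genes 14.9%, 44.1% and 51.4%. The difference between members and other bright genes was not tested. CET replicate 2 held the lowest of the 6 signals for 14 members and CET replicate 3 for 9, while CET replicate 1 held it for 1. VEH replicate 5 held the highest for 12 members and CET replicate 1 for 10.

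The acidic stalk of the large subunit, which brings translation factors to the ribosome, was represented by RPLP1 and RPLP2. RPLP1 signal was 14.47, 14.30 and 14.54 in CET replicates 1, 2 and 3, and 14.27, 14.64 and 14.20 in VEH replicates 4, 5 and 6. The 6 values spanned 0.431, and the groups overlapped fully (log2 fold change 0.06, SE 0.39, adjusted p = 0.98 by limma). RPLP2, its partner in the stalk, varied far more in CET, with 13.75, 14.64 and 12.60, against 13.91, 13.43 and 13.61 in VEH. CET replicate 2 was the highest and CET replicate 3 the lowest of the 6, so a fold change of 0.01 (SE 0.51) stood for 2 CET values on opposite sides of VEH. RPL12, at the base of the stalk, was 12.83, 10.79 and 13.02 in CET and 12.33, 13.83 and 12.91 in VEH. Its fold change of -0.81 (SE 0.61, adjusted p = 0.84) rested on CET replicate 2 and was -0.10 without it.

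Several proteins of the large subunit sit near the peptidyl transferase centre or line the tunnel through which the new protein leaves. RPL8, a protein of the peptidyl transferase region, was 12.33, 10.36 and 10.44 in CET and 11.77, 12.52 and 11.76 in VEH. CET replicates 2 and 3 lay more than 1 log2 unit under all VEH arrays and CET replicate 1 among them (fold change -0.98, SE 0.55, adjusted p = 0.83 by limma). RPL4, a tunnel protein, was 9.56, 8.99 and 6.71 in CET and 9.96, 8.98 and 9.54 in VEH. Only CET replicate 3 stood apart, and the fold change of -1.08 (SE 0.72, adjusted p = 0.83) became -0.22 without that array. RPL17, also a tunnel protein, was 14.19, 13.88 and 14.30 in CET and 13.76, 15.15 and 14.36 in VEH, within the VEH range throughout. RPL26, near the tunnel exit, had a fold change of -0.05 (SE 0.42).

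RPL29 had the lowest fold change of the large subunit, -1.08 (SE 0.54, unadjusted p = 0.069, adjusted p = 0.83 by limma). Its log2 signal was 13.93, 12.11 and 11.74 in CET and 13.75, 13.71 and 13.57 in VEH. The VEH arrays agreed closely (SD 0.091), CET replicate 1 exceeded them and CET replicates 2 and 3 were more than 1 unit below. RPL15 (13.35, 11.002 and 12.80 in CET; 13.004, 13.66 and 12.83 in VEH) and RPL24 (12.13, 8.53 and 11.06 in CET; 11.36, 10.29 and 11.04 in VEH) had their lowest value in CET replicate 2. For RPL15 the fold change was -0.78 with and -0.09 without that array, and for RPL24 it turned from -0.32 to 0.70. RPL32 was lower in every CET sample, at 10.57, 9.90 and 10.66 against 10.79, 11.12 and 11.48. That fold change, -0.75 (SE 0.42, unadjusted p = 0.10, adjusted p = 0.83), was the only one of the large subunit with no overlap in this direction, and was -0.51 to -0.92 when any single array was left out.

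The other large subunit genes were RPL35A, RPL23, RPL9, RPL7, RPL30, RPL10A, RPL13, RPL22, RPL31, RPL5, RPL19 and RPL3L. RPL35A had the brightest probe set of all members, with 15.49, 15.30 and 14.69 in CET and 15.45, 14.11 and 15.30 in VEH. RPL9 had the smallest spread within groups (pooled SD 0.156) and was higher in every CET sample, at 14.36, 14.50 and 14.15 against 13.88, 14.14 and 14.09. The distance between the highest VEH and the lowest CET value was small, and the fold change of 0.30 (SE 0.38, adjusted p = 0.90) was -0.05 on the signals as deposited. RPL5, which joins ribosomes as a complex with a small ribosomal RNA and binds MDM2, lay below the dim limit and had a fold change of 0.52 (SE 0.78). Brighter probe sets that carry RPL5 beside other symbols had overlapping groups. Their fold changes were -0.67 (SE 0.46) at log2 12.79 and 0.08 (SE 0.42) at log2 13.52. RPL7 had nearly equal CET values, 13.91, 13.88 and 13.88. RPL10A had a fold change of -0.58 (SE 0.44) and RPL13 of -0.78 (SE 0.54), and for RPL23, RPL7, RPL30, RPL22 and RPL31 the fold change was between -0.25 and 0.21.

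RPL19 was neither the steadiest nor the least steady member. Its log2 signal was 13.66, 12.64 and 14.05 in CET and 13.82, 13.46 and 14.23 in VEH, a span of 1.58, with CET replicate 2 the lowest. The fold change was -0.38 (SE 0.46, adjusted p = 0.89 by limma). It ranked 21 of 36 by spread within groups, from the smallest, and 20 of 36 by the SD over all 6 arrays (0.561). RPS15, RPLP1, RPS3, RPL9 and RPS7 had the lowest SDs over all 6 arrays, 0.163 to 0.216.

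Among proteins of the small subunit, RPS16, whose tail reaches the site of the peptidyl tRNA, had the lowest fold change and the smallest p. Its log2 signal was 7.90, 6.62 and 7.88 in CET and 9.32, 8.72 and 9.43 in VEH. All CET samples were under all VEH samples, and the fold change was -1.69 (SE 0.61, unadjusted p = 0.017, adjusted p = 0.83 by limma). The CET mean of 7.47 lay at the dim limit of 7.43, and CET replicate 2 was beneath it. The unadjusted p was 0.055 without CET replicate 2, 0.052 without VEH replicate 4 and 0.072 without VEH replicate 6. The 4 other probe sets with RPS16 as their only symbol, all below the dim limit, had fold changes of 1.03, -0.40, 0.17 and 0.20. The mean over all 5 such probe sets was -0.14. Brighter probe sets that carry RPS16 beside another symbol had overlapping groups. Their fold changes were -0.39 (SE 0.42) at log2 14.07 and -1.15 (SE 0.56) at log2 11.96. A further probe set of this kind, at log2 3.20, had -3.06 (SE 1.29).

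RPS19, a factor of small subunit maturation and a gene of Diamond-Blackfan anaemia, was read only by a dim probe set, with 4.52, 5.55 and 5.18 in CET and 6.16, 6.37 and 7.77 in VEH. The groups did not overlap, but every value except VEH replicate 6 was below the dim limit (fold change -1.68, SE 0.83, adjusted p = 0.83). RPS6, the substrate of the RPS6 kinases, was 14.09, 14.37 and 12.996 in CET and 14.03, 14.31 and 13.82 in VEH. CET replicate 3 alone was below the VEH range, and the fold change was -0.24 (SE 0.45, adjusted p = 0.93), turning to 0.17 without that array. RPS18, in the head of the small subunit, was 14.96, 14.20 and 14.01 in CET and 14.85, 14.97 and 14.63 in VEH (fold change -0.43, SE 0.42). Its groups overlapped only through CET replicate 1. RPS15, also of the head, had means of 13.3 in both groups, and its fold change of 0.00073 was the smallest in size of all members. RPS7 was 14.53, 14.55 and 14.38 in CET and 14.32, 13.95 and 14.40 in VEH (fold change 0.26, SE 0.39). RPS10 had -0.69 (SE 0.48), and RPS28, RPS3, RPS21, RPS26 and RPS9 had fold changes between -0.27 and 0.14.

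RPS27L and RPL3L are variants of RPS27 and RPL3, which had no probe set of their own symbol alone. RPS27L, known as a target of p53, had the highest fold change of all members, with 9.29, 8.46 and 8.43 in CET and 8.27, 7.52 and 8.15 in VEH. All CET values exceeded all VEH values, and the difference of 0.75 (SE 0.58, adjusted p = 0.84 by limma) was 0.47 to 0.89 when any single array was left out. A second RPS27L probe set had 0.24 (SE 0.66) with overlapping groups. A brighter probe set, at a mean log2 signal of 12.03, carries RPS27L beside another symbol. It had the opposite sign, -0.48 (SE 0.50), also with overlapping groups. RPL3L, known from skeletal and heart muscle, had the dimmest signal of all members, 5.38 in the mean, and a fold change of 0.42 (SE 0.82).

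**Figure D3:**
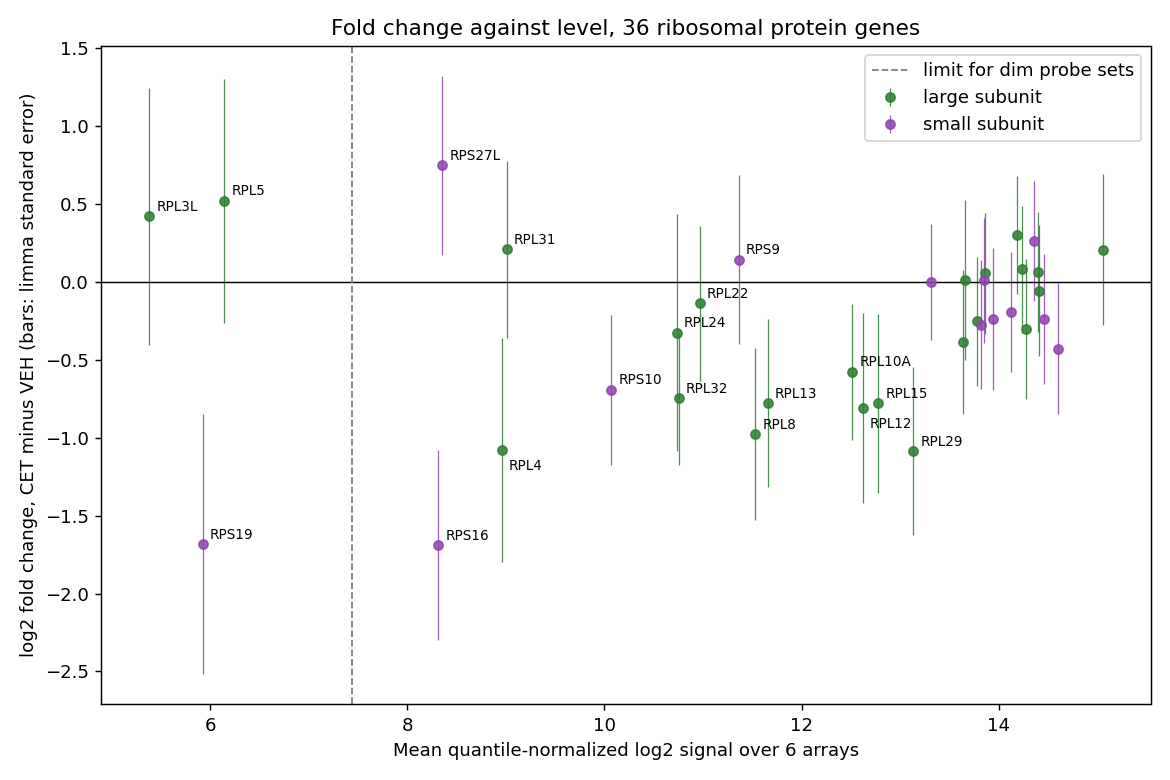
Log2 fold change, CET minus VEH (vertical axis; bars are limma standard errors), against mean log2 signal over 6 arrays for 23 large subunit (green) and 13 small subunit genes (purple), with the dim limit as a dashed line. Genes above log2 13.3 lie between -0.43 and 0.30, and the negative values beyond -0.5 belong to genes of lower signal in both subunits.

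Both subunits were spread over the range of fold changes. The median log2 fold change was -0.25 over the 23 large and -0.24 over the 13 small subunit genes, and both were above 0 after cyclic loess (0.06 and 0.16). When 1 array was left out, the large subunit median ran from -0.41 (no CET replicate 1) to -0.09 (no CET replicate 2), and the small subunit median ran from -0.37 without CET replicate 1 to 0.06 without CET replicate 3. Lower means were found for 14 of 23 and 8 of 13 genes. At the 1.5-fold criterion of the study, 10 members were lower (7 large, 3 small) and 1 was higher, RPS27L, where 24% of all genes were lower and 18.6% higher, none of them with an adjusted p under 0.05.

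The spread between arrays was larger in CET. The SD of the 3 CET samples exceeded that of the 3 VEH samples for 27 of 36 members, for 66.8% of all genes and for 75.7% of the brightest 10%. The median SD of the members was 0.57 in CET and 0.35 in VEH. The pooled SD within groups had a median of 0.525 for members, 0.704 for all genes and 0.520 for the brightest 10%. It was 0.373 over the 18 brighter and 0.696 over the 18 dimmer members, from 0.156 for RPL9 to 1.36 for RPL24. The larger SD was that of CET for 17 of the 18 dimmer and 10 of the 18 brighter genes.

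Different probe sets of a gene did not always agree. The 36 genes had 61 probe sets, and 16 genes had more than 1. Of the 25 probe sets not used above, 15 had a fold change of the same sign as the brightest one and 10 the opposite sign. For the 20 of them above the dim limit, 14 had the same sign. RPL9 had probe sets that separated the groups in opposite directions. The dimmer one was 7.45, 8.68 and 8.11 in CET and 9.02, 9.42 and 9.93 in VEH, lower in every CET sample (fold change -1.38, SE 0.56, unadjusted p = 0.030, adjusted p = 0.83 by limma), while the brighter one was higher in every CET sample. RPL26 had a second probe set with 8.75, 8.06 and 8.80 in CET and 9.64, 9.47 and 9.64 in VEH (-1.04, SE 0.49), against -0.05 for its brightest. RPL13, with 5 probe sets, had -0.78 at the brightest and -0.08, -0.71, 0.81 and 1.58 at the others, the last below the dim limit. RPL35A had fold changes of 0.21, 0.08 and 1.46 and RPL29 -1.08, 0.01 and -0.72. RPL15 (-0.78 and -0.82) and RPL32 (-0.75 and -0.57) had like values in both probe sets that carry only their symbol. Brighter probe sets that carry RPL32 beside other symbols differed. At log2 14.91 the fold change was 0.14 (SE 0.41), with overlapping groups. At log2 12.82 it was -1.25 (SE 0.56), lower in every CET sample.

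**Figure D4:**
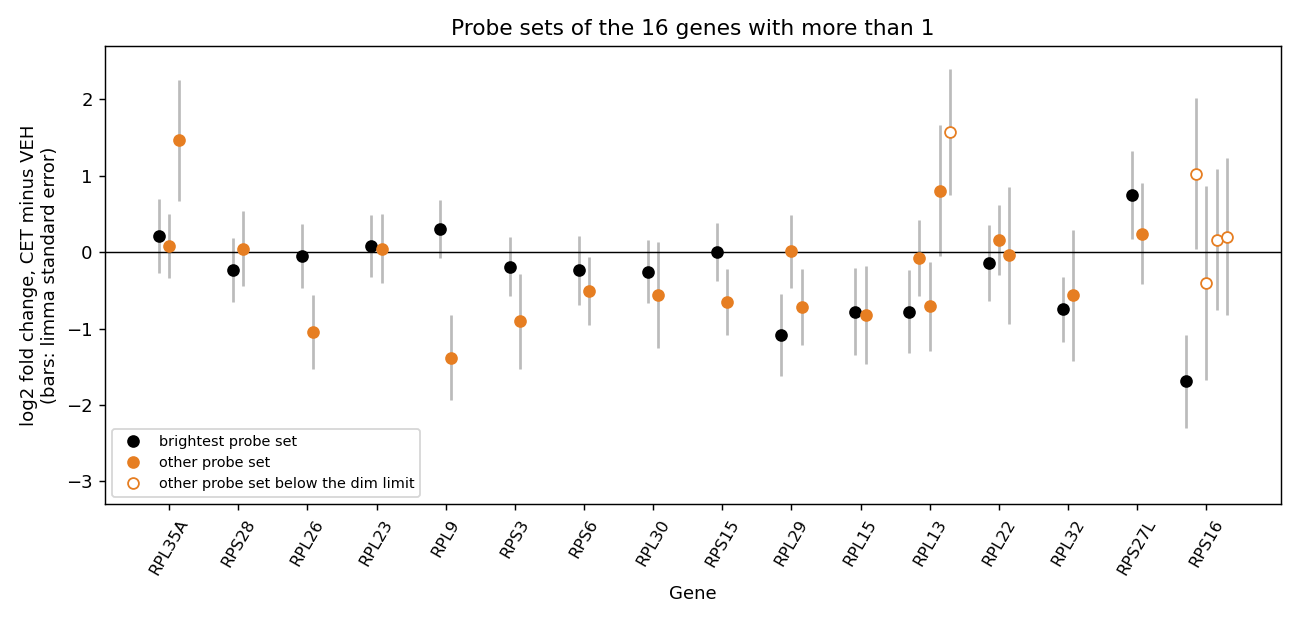
Log2 fold change, CET minus VEH, of all probe sets of the 16 ribosomal protein genes with more than 1 (black, brightest; orange, others; open, others below the dim limit; bars are limma standard errors). For RPL9, RPL13, RPL29, RPL35A and RPS16 the brightest and another probe set differ by more than 1 log2 unit.

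By the suffixes of the platform, 10 of the 36 probe sets used are of a kind shared by several transcripts and 3, those of RPL29, RPL7 and RPS27L, of a kind with probes that also match other sequences. How far near-identical copies added to these signals was not tested. A further 30 probe sets carried several symbols, at least 1 of them of a ribosomal protein. Their median fold change was -0.25, with 17 lower and 13 higher. By level they gave no steady order. The 14 above log2 13 had a median of -0.02, the 10 between log2 10 and 13 a median of -0.95 and the 6 at log2 10 or less, 3 of them below the dim limit, a median of 0.37.

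Genes that work with the ribosome were compared as lists. Mitochondrial ribosomal proteins, which make the few proteins encoded by mitochondrial DNA, were lower for 54 of 62 genes (87.1%, beside 54.7% of all genes), with a median of -0.42. Relative to all genes this was -0.33 after quantile normalization, -0.44 as deposited, -0.44 with array medians and -0.27 after cyclic loess, so the sign held in each. None passed the adjusted p. At an unadjusted p under 0.05 by limma, 2 were lower and 1 was higher, beside 3.01% and 2.02% of all genes. The groups were apart for 8 genes, all lower in CET. Of all genes, 6.45% were apart and lower in CET, and 5.07% apart and higher. MRPL39 was 9.02, 8.32 and 8.18 in CET and 9.63, 9.88 and 9.49 in VEH (-1.16, SE 0.49, adjusted p = 0.83 by limma). MRPL30 had the opposite sign, with 11.05, 12.05 and 12.29 in CET and 11.17, 10.19 and 10.70 in VEH (1.11, SE 0.46, adjusted p = 0.83). Leaving out CET replicate 3 gave this list a median of -0.23, and leaving out CET replicate 1 gave -0.69. The difference between mitochondrial and cytosolic ribosomal proteins was not tested.

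The 6 other subunit genes with a probe set lay outside the naming rule and had a median of -0.10, which was 0.11 after cyclic loess and, with 1 array left out, -0.29 without CET replicate 1 to 0.16 without CET replicate 3. FAU, which encodes a small subunit protein fused to a ubiquitin-like one, had -0.58 (SE 0.43). RPL22L1, the variant of RPL22, was higher in every CET sample, at 13.11, 13.47 and 13.49 against 12.91, 12.73 and 13.02 (0.47, SE 0.37, adjusted p = 0.85 by limma), where RPL22 had -0.14 (SE 0.50). Other TOP mRNAs (11 of 18 genes with a probe set) had a median of -0.21 (-0.10 without VEH replicate 6), 8 lower and 3 higher. EEF2, the translocation factor of elongation, was 10.48, 11.14 and 11.05 in CET and 10.39, 9.94 and 10.40 in VEH (0.65, SE 0.42), and EIF3F, a subunit of an initiation factor, had -0.95 (SE 0.51). Initiation factors (22 genes) had a median of -0.20, which was -0.04 without VEH replicate 5 and -0.40 without CET replicate 1, with -0.77 (SE 0.49) for EIF3J and 0.73 (SE 0.51) for EIF5B, which joins the subunits.

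Ribosome biogenesis and RNA polymerase I genes (39 of 50) had a median of -0.25, with 28 lower and 11 higher. This median was -0.0011 without CET replicate 3, -0.50 without CET replicate 1 and -0.39 without VEH replicate 6. NOP16, a nucleolar protein, was 8.57, 6.48 and 8.75 in CET and 9.95, 9.67 and 9.08 in VEH (-1.63, SE 0.67, adjusted p = 0.83 by limma), and PES1, a factor of large subunit maturation, had 1.23 (SE 0.54). The RPS6 kinases and their growth signalling (15 of 17 genes) had the lowest median of these lists after quantile normalization, -0.47, with 13 lower. It was -0.37 as deposited, -0.57 with array medians and -0.38 after cyclic loess. As deposited and with array medians, cytosolic and mitochondrial ribosomal proteins, other TOP mRNAs and initiation factors had lower medians than the kinase list. RPS6KB1 was 9.37, 9.42 and 8.81 in CET and 9.98, 10.37 and 9.96 in VEH (-0.90, SE 0.45). RPS6KB2 was 6.94, 8.62 and 8.86 in CET and 9.46, 9.36 and 9.37 in VEH (-1.26, SE 0.61). RPS6KB1, RPS6KB2 and RPS6KA1 were each lower in every CET sample than in any VEH sample, with an adjusted p of 0.83 by limma for each. Of all genes, 6.45% were lower in this way. RPS6KA2, at a mean log2 signal of 11.2, had -0.15 (SE 0.39) with overlapping groups. MTOR had -0.03 (SE 0.47), and the 2 higher genes were RPTOR (0.34, SE 0.42) and MDM2 (1.05, SE 0.67). The list median was -0.93 when CET replicate 1 was left out and -0.26 when CET replicate 3 was. No gene of these lists passed the adjusted p.

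**Figure D5:**
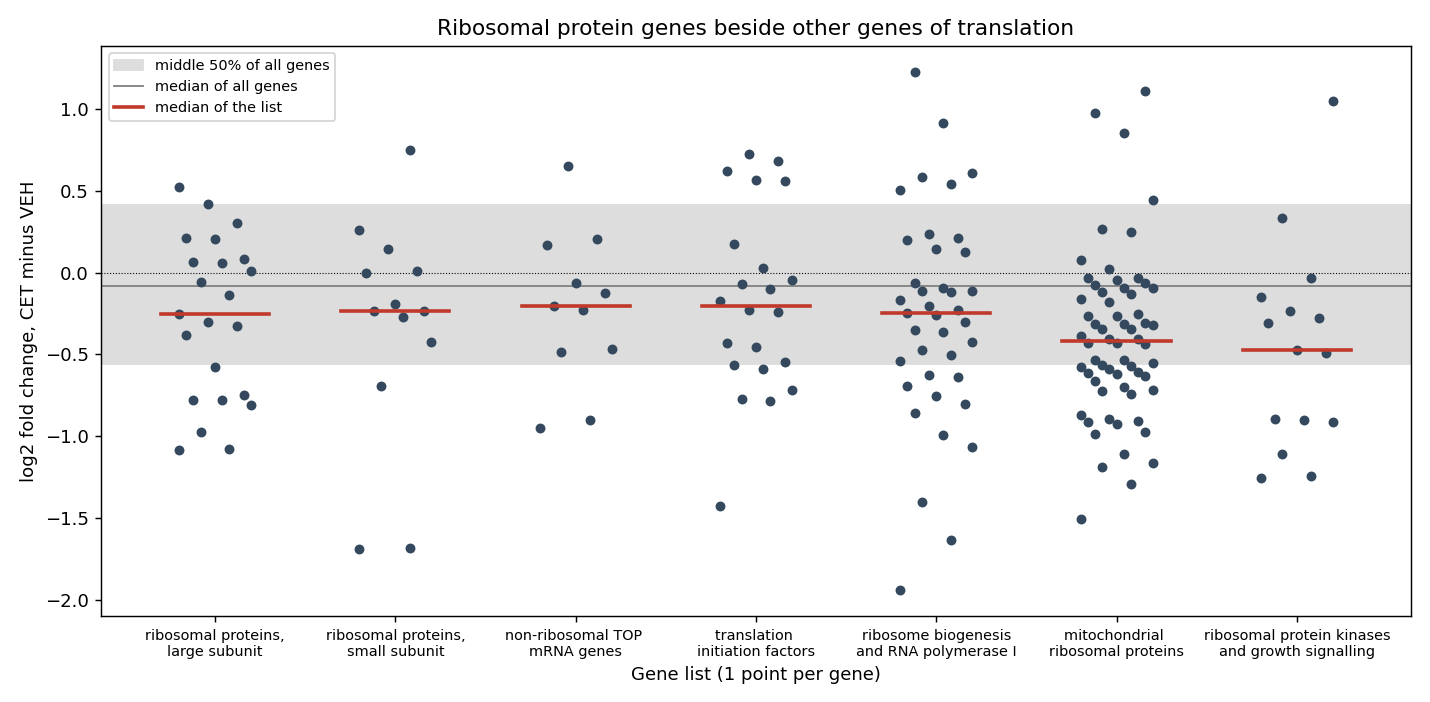
Log2 fold change, CET minus VEH (vertical axis), of each gene in 7 lists of translation genes; red lines are list medians, the grey band holds the middle 50% of all genes (-0.56 to 0.41) and the grey line their median. All list medians lie within the band, between -0.20 and -0.47.

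The summed signal of steroidogenic luteal cell markers was low on the same CET arrays as the dimmer ribosomal protein genes. Of 14 such markers 9 had a probe set, and all 9 had a lower mean in CET, with a median of -0.99 and no value under log2 5.94. Their summed linear signal was 105298, 38947 and 50732 in CET replicates 1, 2 and 3 and 93514 to 129239 in VEH. CET replicates 2 and 3 were the lowest in this sum and in the median of the dimmer ribosomal protein genes. A linear sum weighs the brightest markers most, and single markers differed. NR5A1 was 5.94, 9.22 and 9.50 in CET and 7.85, 8.64 and 8.49 in VEH. The median log2 signal of the list was 12.12, 10.01 and 11.68 in CET and 12.29, 13.56 and 11.40 in VEH. The median of the 10 endothelial markers was -0.38, with 8 lower, and their summed signal, 15969 to 26430 in CET and 16817 to 23658 in VEH, overlapped. Leukocyte markers (6 genes, median -0.09) summed to 2088 to 5287 in CET and 3498 to 4082 in VEH. Sums also overlapped for fibroblast, pericyte, red blood cell and epithelial lists, and for the steroidogenic list through CET replicate 1. Low sums on these CET arrays were not particular to the steroidogenic list. CET replicate 3 had the lowest endothelial (15969), pericyte (2334), leukocyte (2088) and epithelial (869) sums. The fibroblast sum was lowest in CET replicate 2 (11551) but highest in CET replicate 3 (32970), and the red blood cell sum was lowest in CET replicate 1 (1763). The part of cell composition in the ribosomal protein signals was not tested.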

How the data were processed

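RNA of 3 CET and 3 VEH CL was hybridised to 1 Affymetrix rhesus array each. The authors deposited linear intensity values, MAS5 signals of each probe set, whose trimmed mean was 500 on every array. MAS5 version and detection calls: not given in the sources used here. Signals under 1 were set to 1, log2 values were quantile-normalized over 52865 probe sets, and 158 controls were then left out. Gene names came from the platform annotation, which can be old. Probe sets with several symbols (361) or none (27390) were not named. The dim limit was the 40th percentile of mean log2 signal. Groups were compared with limma 3.58.1 (R 4.3.3, intensity trend in eBayes), and the procedure was tested on simulated data. Precision is limited by how few arrays there were, and the median SD within groups was 0.846 log2 units over probe sets.

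The members and lists were chosen with earlier results of these data known. Named genes were RPL19, RPLP1, RPLP2 and RPS6, the 6 members with the smallest p in each direction, the 4 at each end of level and of spread, and up to 2 genes per comparison list. Other genes were named after their values were seen. Alternatives were other scalings, a pseudocount of 16, array weights, the methods' t-test, limma with no trend, dim probe sets removed, a term for the 3′ to 5′ ratio, other probe sets and leaving out each array. The split by level, the subunits and probe sets with several symbols were added after seeing the data.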

Additional observations from a re-analysis of the deposited data

Results flagged for a closer look

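Control probe sets outside the comparison set CET replicate 2 apart, since the ratio of 3′ to 5′ signal exceeded that of all VEH arrays for 3 of 3 control transcripts. It was 142.85 for GAPDH (VEH 1.79 to 7.31), 37.2 for ACTB (VEH 2.12 to 22.4) and 42.2 for EF1A (VEH 0.929 to 9.56). On this array the median of the 36 ribosomal protein genes was 12.4, the lowest of the 6 arrays (12.9 to 13.6 on the others). The next highest mean log2 ratios, 3.54 in VEH replicate 4 and 2.67 in CET replicate 1, went with medians of 13.4 and 13.5. CET replicate 3, with a mean log2 ratio of 1.12, had a median of 12.9. A link between ratio and median was not tested. With the mean log2 ratio of each array as a covariate, the median log2 fold change of the ribosomal protein genes was -0.14.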

How the results depend on the processing

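With 3 arrays a group and no detection calls, small differences and dim genes cannot be resolved. No alternative gave an adjusted p under 0.05 by limma or the methods' t-test. At an unadjusted p under 0.05 there were 863 of 14132 genes with the mean over all probe sets of a gene, and 1696 to 6997 probe sets in the other settings. No paired analysis was possible because the CET and VEH samples share no replicate number. With array medians subtracted, the median log2 fold change was -0.73 for ribosomal proteins, -0.52 for other subunit genes, -0.67 for TOP mRNAs and -0.64 for initiation factors, and 3 members had an unadjusted p under 0.05 (RPS16, RPL29, RPL32). Members with a lower mean numbered 14 after cyclic loess and 9 of 16 at the second brightest probe set. Members at an unadjusted p under 0.05 numbered 2 without the intensity trend and 2 by the methods' t-test (RPS16, RPS19), and 3 with array weights (RPS16, RPL29, RPL8). With 1 array left out they numbered 0 to 6, with 0 without CET replicate 2, VEH replicate 4 or VEH replicate 6 and 6 without CET replicate 1. Of 52707 probe sets, 3578 had such a p with array medians, 2786 without the trend, 2729 by the t-test and 5086 with array weights. There were 6997 without CET replicate 1, 2279 without CET replicate 2, 2639 without VEH replicate 4 and 2073 without VEH replicate 6. The kinase list was at -0.93 to -0.26 with 1 array left out. Other planned medians stayed on their side or moved by less than the spread between arrays, and their causes were not tested.

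Of 376 values of the 23 named members under these settings, 43 from 13 genes had the opposite sign, none of them called. As deposited, these were RPLP1 -0.28, RPLP2 -0.35, RPL9 -0.047, RPS7 -0.14, RPL35A -0.13 and RPS15 -0.41. With array medians they were RPLP1 -0.48, RPLP2 -0.56, RPL9 -0.25, RPS7 -0.34, RPL35A -0.33 and RPS15 -0.61. After cyclic loess they were RPS6 0.12, RPS28 0.16 and RPL26 0.33. Adding a term for the 3′ to 5′ ratio they were RPLP2 -0.47, RPL35A -0.039, RPL26 0.15, RPS15 -0.089 and RPL24 0.19. At the second brightest probe set they were RPS16 1.03, RPL29 0.011, RPL9 -1.38, RPS28 0.046 and RPS15 -0.65, and with the mean over all probe sets RPL9 -0.54 and RPS15 -0.33. With 1 array left out, values ran from -0.68 to 0.022 for RPL19, -0.019 to 0.20 for RPLP1, -0.47 to 0.54 for RPLP2, -0.52 to 0.17 for RPS6, -0.21 to 0.46 for RPL35A, -0.40 to 0.055 for RPS28, -0.27 to 0.17 for RPL26, -0.11 to 0.093 for RPS15 and -1.10 to 0.70 for RPL24. The causes were not tested.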
